A study of Mus musculus with 12 samples.

Results

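The comparison concerns N6-methyladenosine (m6A) peaks in mouse embryonic stem cells with and without knockdown of Mettl3. It uses 4 of the 12 libraries of the study, which are 2 scramble and 2 Mettl3 knockdown anti-m6A immunoprecipitations. The libraries were chosen by their labels through the 2 deposited tables that set a Mettl3 knockdown library against a scramble library, and every listed peak was used. All 4 come from the J1 line grown with LIF on irradiated embryonic fibroblasts, which can contribute RNA. Both groups were infected with lentivirus carrying an shRNA and selected with puromycin as stable lines, so they share infection and selection and differ in the hairpin, scramble or Mettl3. Fragmented poly(A) RNA was pulled down with an anti-m6A antibody and sequenced. The 2 tables, called set 1 and set 2 here, share no library, and no source used here states which labelled replicate belongs to which set. The submitters' design text speaks of 1 biological replicate, so the spread between sets may be technical.

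Mettl3 is the catalytic subunit of the nuclear complex that writes m6A on mRNA, together with its partner Mettl14. The mark is placed mainly at adenosines within short sequence contexts of which GGACT is a frequent form, and it is known for clustering in long internal exons and near stop codons. In embryonic stem cells m6A is known for marking transcripts of pluripotency and developmental regulators and for shortening the life of many marked mRNAs.

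A scramble peak was called lost if no knockdown peak of the same table overlapped it by at least 1 nt on the same strand, and kept otherwise. A knockdown peak without an overlapping scramble peak was called gained. A site was a set 1 scramble peak that overlapped a set 2 scramble peak. These calls compare lists of regions that a peak caller reported. A lost peak is one that was not listed, which is not a measurement of zero methylation, and fewer transcripts and less m6A per transcript cannot be told apart from the calls.

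The sequences around GGACT matches in peaks with each kind of call show the kind of stretch the calls are about. Each has 29 bases, 5′ to 3′ on the transcript strand, with the GGACT nearest to the peak's centre in capitals, from GENCODE M21 transcripts at GRCm38 (mm10) coordinates. The first 4 lie in peaks lost in both sets, the next 3 in peaks gained in both, and the 3 after these in genes that kept every peak. Olfml2b shows a kept site whose enrichment was lower in both knockdown libraries, and Wtap a lost site in a gene that also kept a site.
Arid2 (chr15:96371492-96371520, + strand, coding sequence): ccattttccaagGGACTtctggcaaccag
Hes6 (chr1:91412279-91412307, - strand, coding sequence): ggatctgctgggGGACTccctagctgggc
Sart3 (chr5:113743109-113743137, - strand, 3' UTR): agaaagtgagcaGGACTctgagatggaga
Grasp (chr15:101231963-101231991, + strand, coding sequence): aagttcatccccGGACTcaaccgctccct
Msh6 (chr17:87986570-87986598, + strand, coding sequence): gctcggaagaccGGACTcatcactccaaa
Zfp281 (chr1:136625875-136625903, + strand, coding sequence): gcagcggtagcaGGACTgatgagcacggc
Sall1 (chr8:89030552-89030580, - strand, coding sequence): cggaggtgctttGGACTtgacttctagtc
Irs2 (chr8:10986420-10986448, - strand, 3' UTR): ttaagtcgatgtGGACTccagtccaggta
Wdr81 (chr11:75445558-75445586, - strand, coding sequence): gcagcaaggaccGGACTgtgcgcctctgg
Zfp36l2 (chr17:84185637-84185665, - strand, 3' UTR): ctccgagcacttGGACTcgaactctgccg
Olfml2b (chr1:170681920-170681948, + strand, coding sequence): tcactcggatgtGGACTttgctgtggatg
Wtap (chr17:12967885-12967913, - strand, coding sequence): caagtaccagcaGGACTacatcttctgaa
A match is a description of the letters and not a mapped modification. The same 5 letters, searched on the transcript strand in 201-nt windows, occurred in 20.2% of 113637 windows tiled along the coding transcripts of the listed genes.

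Over all widths and positions together, windows at peak centres held GGACT more often than that background whatever the call. In set 1 the shares were 32.4% of 2207 lost, 34.7% of 3644 kept and 32.2% of 404 gained peaks on coding transcripts. In set 2 they were 31.8% of 1379 lost, 33.6% of 2731 kept and 32.7% of 732 gained peaks. The gap between lost and kept peaks was larger within width classes, and wide peaks held the motif at their centre less often. Among peaks of 500 to 799 nt, 27.1% of lost and 36.4% of kept peaks held it in set 1, and 31.2% and 36.0% in set 2. Lost peaks had the lower share in all 5 width classes of both sets. By position the gap was uneven. At stop codons 35.1% of lost and 41.1% of kept peaks held the motif in set 1, and 35.8% and 42.6% in set 2, whereas in coding sequence it was 29.0% and 30.4%, and 28.2% and 29.0%. In the 5' UTR the lost peaks had the higher share, with 40.2% of 82 lost and 38.5% of 78 kept peaks in set 1 and 37.0% of 73 and 31.9% of 69 in set 2, and the intervals overlapped.

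Fewer peaks were listed after Mettl3 knockdown in both sets. The scramble libraries held 7886 peaks over 5212 kb in set 1 and 5438 peaks over 4254 kb in set 2, against 5087 peaks over 3225 kb and 4577 peaks over 3052 kb in the knockdown. Neither value overlapped between the groups, and with 2 libraries a group the exact two-sided permutation test gave p = 0.333 for both, the smallest it can give. Median peak width was 538 and 651.5 nt in scramble and 523 and 539 nt in the knockdown, lower in both tables (exact permutation p = 0.667 between the groups). No peak was listed for Mettl3 or Mettl14, and peaks are not expression values, so the knockdown could not be checked. Of 8 markers of embryonic stem cells, 3 or 4 had a peak in each library (Klf4, Sall4 and Sox2 in all 4). Of 28 fibroblast markers, the scramble libraries listed 4 and 2 and the knockdown libraries 2 and 0, and the part of feeder RNA in the results was not tested.

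In set 2 the lowest listed scores of the 2 peak lists differed. The authors' deposited score is minus 10 times the log10 of the caller's p-value. Its lowest listed value was 142.47 in scramble and 146.09 in the knockdown of set 1, but 204.36 and 116.34 in set 2. The scramble values come from lost peaks alone, since scores of kept scramble peaks are not listed. All lists ended at an FDR just under 10% (highest 9.99%). Set 2 calls by width, gene position, exon, gene and gene list are therefore also given with knockdown peaks held to the scramble library's lowest score, a choice made after seeing the data. Motif shares and positions within a width class are given for all listed peaks alone.

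Of the scramble peaks, 3584 of 7886 were lost in set 1 (45.4%, 95% Wilson interval 44.4 to 46.5) and 2277 of 5438 in set 2 (41.9%, 40.6 to 43.2). The recomputed calls differed from the authors' own marks at 0 of 12973 and 0 of 10015 peaks. Gained peaks were fewer and differed between the sets, at 649 of 5087 (12.8%) in set 1 and 1284 of 4577 (28.1%) in set 2. With knockdown peaks held to the scramble library's lowest score, 65.2% of scramble peaks were lost and 8.75% of 2103 knockdown peaks were gained in set 2. The set 1 shares did not move, as no knockdown peak there lay under the scramble minimum. Of the gained peaks, 127 of 649 (19.6%) in set 1 and 592 of 1284 (46.1%) in set 2 overlapped a scramble peak of the other set. These regions were therefore listed by the other scramble library.

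Among the 4591 sites, 2789 (60.7%) were kept and 841 (18.3%, interval 17.2 to 19.5) were lost in both sets. A further 610 sites were lost in set 2 alone and 351 in set 1 alone. With the set 2 score minimum applied, 40.4% of sites were kept and 23.8% were lost in both. Gained peaks of set 1 that overlapped a gained peak of set 2 numbered 121, and none of the 121 touched a scramble peak of either library. That number was 24 with the score minimum. A kept peak usually stayed whole: 200 of 4302 kept peaks (4.65%) in set 1 and 167 of 3161 (5.28%) in set 2 were split into several knockdown peaks. The median kept scramble peak had 87.4% and 87.9% of its length under knockdown peaks.

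**Figure D1:**
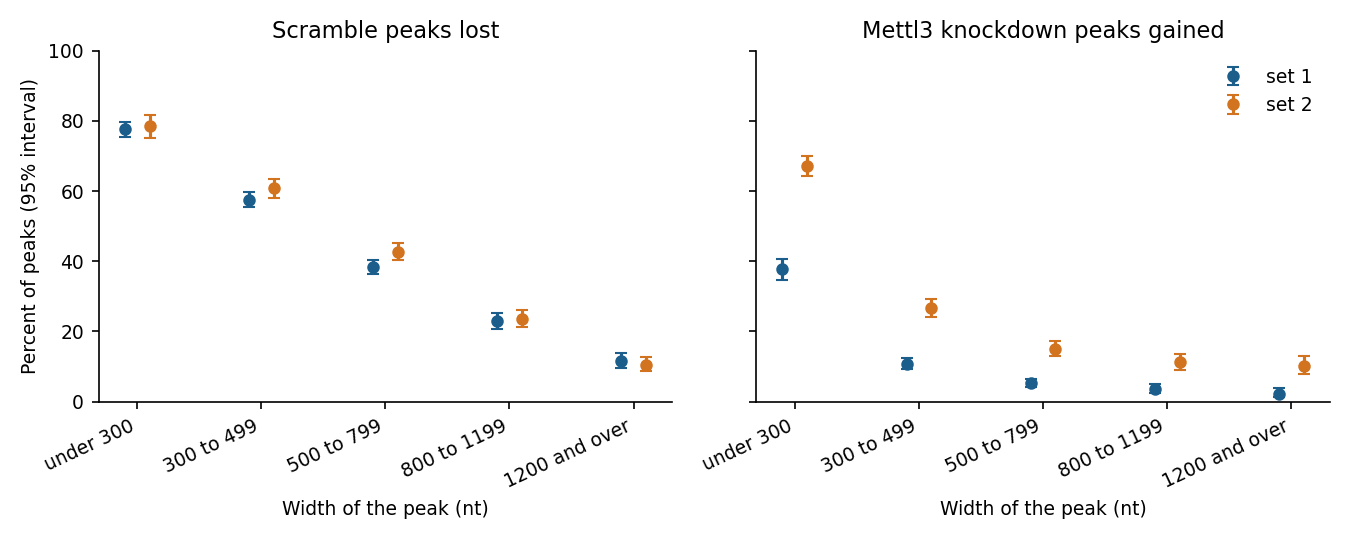
Percent of scramble peaks lost (left) and of Mettl3 knockdown peaks gained (right) by width class of the peak in nt, in set 1 (blue) and set 2 (orange). Points are shares and bars 95% Wilson intervals, which cover counting error only. Loss runs from 77.7% and 78.6% of peaks under 300 nt down to 11.5% and 10.6% of peaks of 1200 nt and over.

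Width ordered the losses in the same way in both sets. In set 1, 77.7% of 1478 scramble peaks under 300 nt were lost, and then 57.5%, 38.3%, 23.0% and 11.5% across the classes of 300 to 499, 500 to 799, 800 to 1199, and 1200 nt and over. In set 2 the same 5 shares were 78.6%, 60.7%, 42.7%, 23.5% and 10.6%. The plot of loss by width class shows the sets within a few points of each other. With the score minimum, loss in set 2 was higher throughout but kept the order, from 94.2% of the narrowest to 25.8% of the widest class. Among sites, 45.5% of the narrowest and 2.86% of the widest class were lost in both sets, and 22.9% and 89.5% were kept in both.

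Gained peaks were also mostly narrow. Under 300 nt, 37.7% of knockdown peaks in set 1 and 67.1% in set 2 were gained, against 2.19% and 10.3% at 1200 nt and over. With the score minimum the set 2 shares were 48.8% and 5.36%. Narrow peaks were thus the least shared between the 2 libraries of a set in both directions.

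By the authors' values, lost peaks were narrow and, over all widths, had the higher median enrichment. A tag is a read that the caller counted in the peak, in the library the peak was called in. Median width was 396 nt for lost and 702 nt for kept scramble peaks in set 1, and 473 and 819 nt in set 2. The median fold enrichment of IP over control was 23.6 for lost and 15.2 for kept peaks in set 1, and 28.1 and 14.0 in set 2. Narrow peaks also had higher enrichments, and at matched width the direction was not the same in both sets. Among set 1 peaks of 500 to 799 nt, 43.7% of the less enriched and 32.9% of the more enriched ones were lost, when the class was divided at its median enrichment. At 1200 nt and over these shares were 16.1% and 6.76%. In set 2 they were 37.9% and 47.6% at 500 to 799 nt, and 10.7% and 10.5% at 1200 nt and over. Lost peaks held a median of 38 and 47 tags, and gained peaks of 18 and 22, whereas the knockdown copies of kept peaks held 75 and 83. Scramble tags of kept peaks are not listed in the tables, so tags of lost and kept scramble peaks could not be set side by side.

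**Figure D2:**
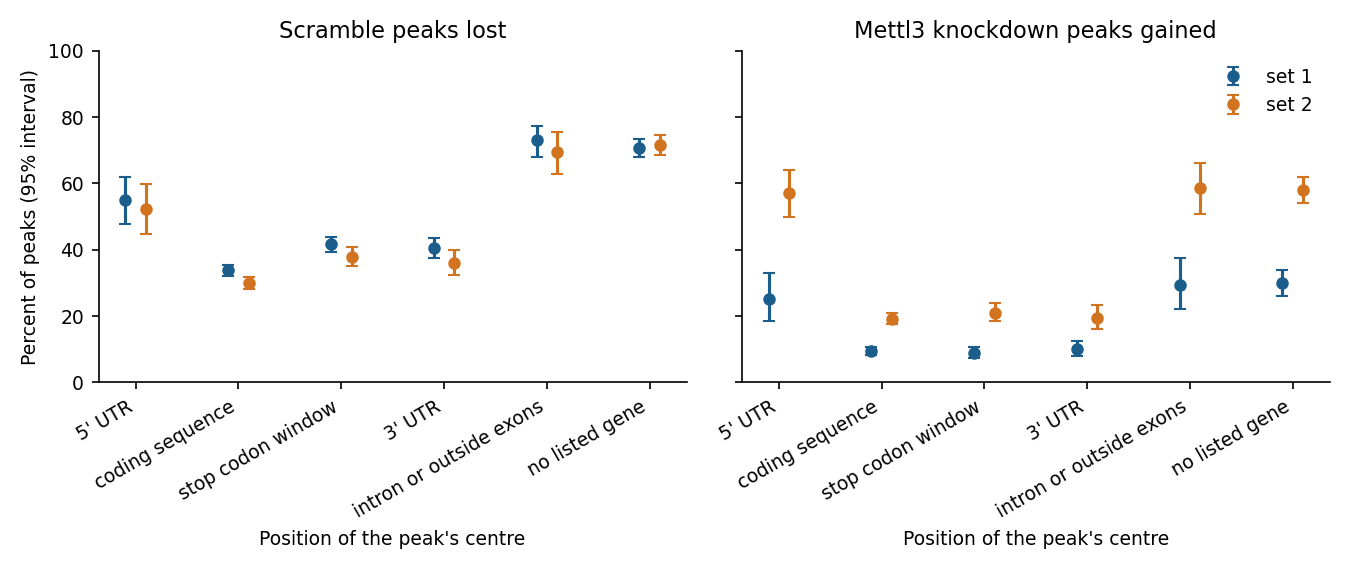
Percent of scramble peaks lost (left) and of Mettl3 knockdown peaks gained (right) by where the peak's centre lies on the annotated gene, in set 1 (blue) and set 2 (orange), with 95% Wilson intervals for counting error. The lowest loss is in coding sequence (33.8% and 29.97%) and the highest in introns and in peaks with no listed gene.

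By gene position, peaks in coding sequence were lost least. There 997 of 2954 peaks (33.8%) were lost in set 1 and 686 of 2289 (29.97%) in set 2. Within 200 nt of a stop codon the shares were 725 of 1740 (41.7%) and 408 of 1075 (38.0%), and in the rest of the 3' UTR 40.6% and 36.1%. Peaks in 5' UTRs were few but were lost in 101 of 184 cases (54.9%) and 86 of 164 (52.4%). Introns and stretches outside annotated exons lost 73.0% and 69.5%, and peaks to which the authors' tables assign no gene lost 70.8% and 71.7%. Held to the score minimum, set 2 lost 53.3% in coding sequence, 66.2% near stop codons, 61.9% in the 3' UTR, 75% in the 5' UTR, 84.5% in introns and 89.3% with no listed gene. Coding sequence thus had the lowest loss of these 6 positions in both sets, with and without the minimum.

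Peaks in coding sequence were also wider, with medians of 707.5 and 817 nt against 527 and 584 nt near stop codons. Within a width class the difference between coding sequence and stop codons was smaller and changed sign. Among peaks of 300 to 499 nt, 55.1% of coding and 50.9% of stop codon peaks were lost in set 1, and 58.0% and 51.4% in set 2. At 800 to 1199 nt set 1 lost 16.8% of coding and 23.7% of stop codon peaks, and set 2 lost 18.8% and 17.9%. The higher loss in the 5' UTR held in the classes of 300 to 499 nt (66.7% and 61.9%) and 500 to 799 nt (42.3% and 51.1%, against 35.9% and 36.5% in coding sequence). Intronic peaks of 500 to 799 nt were lost in 67.2% and 68.2% of cases, so their higher loss was present at matched width.

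Exon structure moved with loss as well. Peaks of coding sequence in internal exons were lost in 38.1% and 34.1% of cases, and those in last exons in 28.5% and 24.0%. Coding peaks in exons of 200 to 499 nt were lost in 67.2% and 67.6%, against 28.1% and 23.8% in exons of 2000 nt and over. The set 2 shares under the score minimum were 60.6% in internal and 44.5% in last exons, and 85.3% and 43.9% in the shorter and the longest exons. Peak width again differed between these classes, with medians of 440.5 and 466 nt in the shorter exons and 782 and 973 nt in the longest. On transcripts with 1 to 2 exons 31.01% and 26.1% of peaks were lost, against 38.6% and 34.6% with 11 exons and over. With the minimum these set 2 shares were 48.3% and 59.8%.

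Gains by position followed the same broad order as losses. In the 5' UTR 25.2% of knockdown peaks in set 1 and 57.1% in set 2 were gained, against 9.46% and 19.2% in coding sequence and 9.02% and 21.1% near stop codons. Introns had 29.3% and 58.7% gained, and peaks with no listed gene 29.8% and 58.0%. The 5' UTR, introns and peaks with no listed gene thus had more change in both directions than the coding sequence. Their knockdown peaks were also narrower. Medians were 457 and 327 nt in the 5' UTR, 312 and 284.5 nt in introns and 262 and 220.5 nt with no listed gene. In coding sequence they were 650 and 713.5 nt, and gains by position were not compared at matched width. Few gained peaks were left in set 2 under the score minimum, with 6 of 48 (12.5%) in the 5' UTR, 10 of 40 (25%) in introns, 42 of 134 (31.3%) with no listed gene and 69 of 1158 (5.96%) in coding sequence. Over all peaks in coding transcripts, the share at stop codons was 29.5% and 25.9% in scramble and 28.0% and 25.3% in the knockdown (exact permutation p = 0.667 between the groups). Within each table the share was lower in the knockdown, by a difference of -1.48 and -0.58 percentage points. The share in the 3' UTR had differences of -1.49 and -2.24, and that in coding sequence of 2.86 and 1.76. Each sign was the same in both tables, and the exact two-sided sign-flip test over the 2 pairs gave p = 0.5, the smallest it can give.

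Different peaks of the same transcript often had different calls. Of 662 genes with at least 2 sites, 260 kept every site in both sets, 19 lost every site in both, and 140 had a site lost in both beside one kept in both. In these 140 genes the lost site was the narrower in 113 (80.7%), with medians of 573.5 nt for lost and 901 nt for kept sites. It had the higher scramble enrichment in 57 of the 140, with medians of 13.8 for lost and 16.4 for kept sites. Under the score minimum, 143 genes kept every site, 29 lost every site and 117 had both kinds. In 97 of the 117 the widest lost site was narrower than the widest kept site. Without the minimum, the lost site lay in a 5' UTR in 14 of the 140 genes, whereas the kept site did so in 2. In the same calls, the order along the transcript showed no such lean. The lost site was nearer to the 5' end in 60 of 115 genes and nearer to the stop codon in 49 of 114.

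The mixed genes with the most tags at the lost site included Wtap, which encodes a subunit of the m6A writer complex itself. Its coding peak (chr17:12967381-12968223 in set 1) held 223 and 192 scramble tags and was lost in both sets. A second site of Wtap (chr17:12974615-12975563) was kept in both, with 48 and 24 knockdown tags. The set 1 knockdown library also listed 1 gained peak for Wtap. Zfp146, a zinc finger gene, lost a peak centred on its 5' UTR with 208 and 215 scramble tags and kept a 3' UTR peak with 185 and 154 knockdown tags. Brpf1, a subunit of histone acetyltransferase complexes, lost a coding peak of 199 and 190 tags and kept another with 187 and 206 knockdown tags. Wtap, Zfp146 and Specc1l had no kept peak in set 2 under the score minimum. Specc1l, Sfswap and C230081A13Rik were the other three, with 276 and 334, 257 and 262, and 223 and 216 scramble tags at the lost site.

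At gene level, 478 of the 3452 genes listed with scramble peaks in each set lost every one in both (13.8%), and 1644 kept every one (47.6%). The other 1330 had calls that differed between peaks or sets. Under the score minimum 616 genes (17.8%) lost and 1040 (30.1%) kept every peak in both sets. Of the 478 genes, 95 had more than 1 scramble peak in a set. A gene could be counted without its peaks overlapping between the sets.

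**Figure D3:**
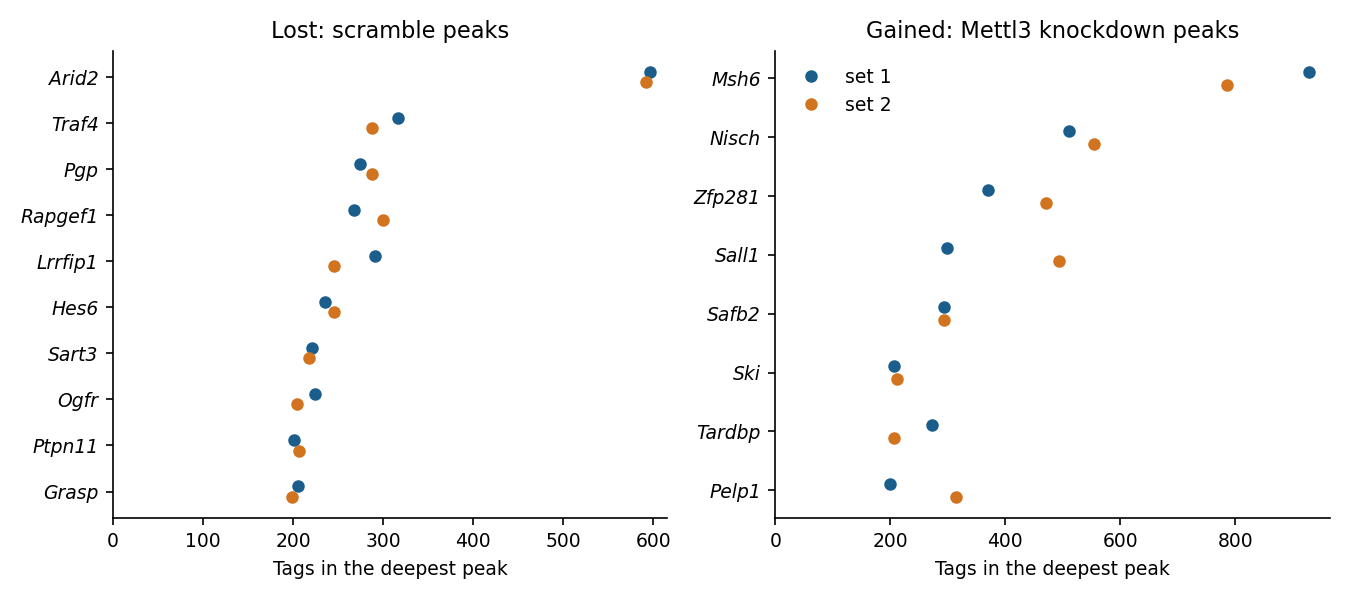
Tags in the deepest lost scramble peak (left, 10 genes) and in the deepest gained Mettl3 knockdown peak (right, 8 genes) in set 1 (blue) and set 2 (orange), from the authors' deposited tables. The genes were selected by the lower of the 2 tag counts. Arid2 stands apart on the left with 596 and 592 tags, and Msh6 on the right with 928 and 785.

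The named genes that lost every peak were selected for many tags, and their peaks were wide and of low enrichment, unlike the typical lost peak. Arid2, a subunit of the PBAF chromatin remodelling complex, had a scramble peak of 2869 nt over its large exon 15 of 21 (chr15:96369922-96372790) with 596 tags and a fold enrichment of 5.62 in set 1. In set 2 the same region held 592 tags at 4.63. No knockdown peak overlapped it in either set. Traf4, a signalling adaptor, lost a peak at its stop codon with 317 and 288 tags (chr11:78159481-78160643, last exon).

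Hes6, a helix-loop-helix factor of the Hes family known from neurogenesis, lost its stop codon peak (chr1:91411592-91412603, 1012 nt, exon 4 of 4). The peak held 235 and 246 tags at enrichments of 6.88 and 7.85. Sart3, which recycles spliceosomal snRNPs, lost a stop codon peak of 221 and 218 tags, and Grasp, a scaffold protein, one of 205 and 199 tags. Ptpn11, the SHP2 phosphatase of growth factor signalling, lost a 3' UTR peak with 201 and 207 tags at enrichments of 7.99 and 6.65.

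Rapgef1, an exchange factor for Rap1, lost a 3' UTR peak with 268 and 300 tags, and also an intronic peak of 80 tags that was listed in set 1 alone. Pgp, a phosphatase, lost a peak of 274 and 288 tags, Lrrfip1 one of 291 and 245, and Ogfr, the opioid growth factor receptor, a coding peak of 224 and 204. Over the 10 genes the deepest peaks had enrichments from 4.63 to 10.74. At an FDR of at most 5%, 5 of the 10 still had a lost peak in both sets (Rapgef1, Lrrfip1, Hes6, Sart3 and Grasp). Arid2, Traf4, Pgp, Ogfr and Ptpn11 had set 2 peaks above that FDR, and the set 1 peak of Ogfr was above it too.

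In 125 of 5725 listed genes (2.18%) a peak was gained in each set, not necessarily at the same place. Of these genes, 57 had no scramble peak in either set. With the score minimum, 24 genes had a gained peak in each set. The 8 genes named here were chosen among those whose gained peaks overlapped between the sets. Among the 8 genes with the most tags, Msh6, a DNA mismatch repair gene, had a knockdown peak of 2576 nt over exon 4 of 10 (chr17:87984446-87987021) with 928 and 785 tags and enrichments of 3.66 and 4.61. It overlapped a scramble peak of the other strand in 1 set. Zfp281, a zinc finger regulator of pluripotency, had a coding peak (chr1:136625226-136626817) with 370 and 471 tags at 7.77 and 5.12. Sall1, a zinc finger factor of embryonic stem cells, had one (chr8:89030022-89030965) with 298 and 494 tags at 5.13 and 4.49. An intronic scramble peak of Sall1 with 33 tags was lost in set 1.

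These 3 genes also had a gained peak in both sets with the score minimum. Nisch (510 and 555 tags), Safb2 (294 and 293), Pelp1 (199 and 314), Ski and Tardbp then had it in set 1 alone. Ski, a repressor of TGF-beta signalling, had a 3' UTR peak of 207 and 212 tags, and Tardbp, which encodes the RNA-binding protein TDP-43, one of 273 and 206 tags. The set 2 scores of these 5 genes ran from 140.97 (Tardbp) to 202.9 (Pelp1), under the lowest scramble score of that set.

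The enrichment of kept peaks moved in opposite directions in the 2 tables. By the authors' deposited tables, the median log2 change of knockdown over scramble enrichment was 0.22 over 4516 kept pairs in set 1, where 35.2% of pairs were lower in the knockdown. It was -0.91 over 3337 pairs in set 2, where 93% were lower. The tables multiply knockdown enrichments by 1 constant, which was 1.0029 in set 1 and 0.6089 in set 2. Without the constant the medians were 0.22 and -0.20, and 35.5% and 63.0% of pairs were lower. Changes of single sites are therefore given relative to the median of their table.

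Among the coding sequence, stop codons and 3' UTR, position made little difference to that change. In set 1 the median relative to the table was -0.03 in coding sequence, -0.02 near stop codons and -0.02 in 3' UTRs, and in set 2 it was 0.03, -0.06 and -0.01. Smaller classes lay farther out. Introns had 0.13 over 98 pairs in set 1 and 0.21 over 65 in set 2, above the table median in both. Pairs with no listed gene had 0.36 over 357 and -0.02 over 243, and non-coding exons 0.58 over 53 and -0.17 over 33, so their direction differed between the sets. Knockdown peaks had a median of 87.1% and 86.7% of the scramble peak's width. Of the 2789 sites kept in both sets, 823 lay below and 765 above the table median in both, and 1201 lay on different sides. Across these sites the relative changes had Pearson's r of 0.18 and Spearman's rho of 0.20, as a description, since sites of 1 library share its depth and scaling.

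**Figure D4:**
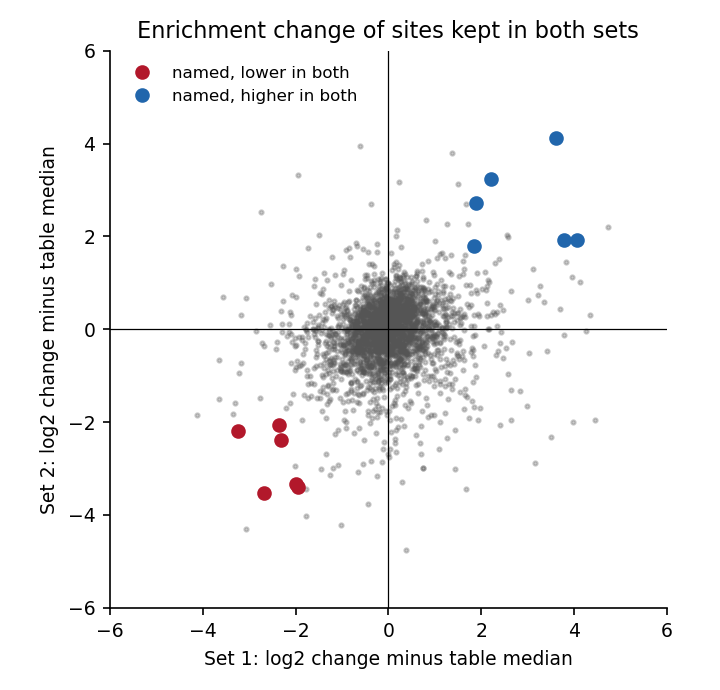
Log2 change of enrichment, knockdown over scramble, minus the table median, in set 1 (x axis) and set 2 (y axis) for the 2789 sites kept in both sets (grey). Red and blue mark the 12 genes selected as lower or higher in both. Of the sites, 823 lie below and 765 above 0 on both axes, and 1201 lie on different sides.

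At least 1 log2 unit below the table median in both sets lay 56 sites, and 38 lay as far above, as the plot of kept sites shows. Olfml2b, which encodes a secreted matrix protein, had scramble enrichments of 252.29 and 264.75 at a coding peak and knockdown enrichments of 45.83 and 20. Its log2 change was -2.46 and -4.44, which is -2.68 and -3.53 relative to the table median. Flnc, a filamin of the actin cytoskeleton, had 46.4 and 58.6 in scramble and 10.85 and 9.76 in the knockdown at a 3' UTR peak, or -2.32 and -2.39 relative to the median.

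Bcl2l11 (BIM, a trigger of apoptosis) had relative changes of -3.23 and -2.18 at a peak outside the exons of its main transcript. Mdfic, Endod1 and Tmcc3 had relative changes of -2.36 and -2.06, -1.999 and -3.34, and -1.94 and -3.40. Knockdown tags at these 6 sites ran from 14 to 98. Under the score minimum Olfml2b, Flnc, Bcl2l11 and Mdfic had no kept peak in set 2. The control reads behind an enrichment are not listed, and their part in these changes was not tested.

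Sites named as above the median in both sets had 11 to 83 knockdown tags. Meis1, a homeobox gene of mesoderm and blood development, had enrichments of 24.84 and 25.46 in scramble and 134.5 and 210.62 in the knockdown at its stop codon, on 11 and 16 knockdown tags. Relative to the table median its log2 change was 2.22 and 3.25. Thpo, which encodes thrombopoietin, had 4.07 and 1.93 on 46 and 19 tags, and Pgpep1 had 1.84 and 1.79 on 83 and 55. Lrriq4 had 3.79 and 1.93 and the non-coding gene 3222401L13Rik 1.90 and 2.71. Ceacam2 had 3.62 and 4.11 on 16 tags in each set, and as a near copy of Ceacam1 it is uncertain. Thpo had no kept peak in set 2 under the score minimum, and Pgpep1 and 3222401L13Rik each lost 1 of 2.

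The genes with the most sites among those that kept every peak were Irs2, Nsd1, Cdk13, Wdr81, Foxk1 and Zfp36l2. Irs2, the insulin receptor substrate, kept 4 sites, 3 of them in coding sequence, but these 4 rested on 3 knockdown peaks in set 1 and 2 in set 2. A coding peak of Irs2 held 877 tags in the set 2 knockdown over 4006 nt (chr8:11004527-11008532). Nsd1, a histone methyltransferase, kept 4 coding sites, with 102 to 472 knockdown tags in set 1 and 86 to 481 in set 2. Cdk13, a kinase of RNA polymerase II, and Wdr81 also kept 4 sites each, though set 2 listed Wdr81 with 3 scramble peaks. Foxk1, a forkhead factor, and Zfp36l2, which encodes an mRNA decay factor, kept 3 each. But in both genes all 3 set 1 scramble peaks overlapped the same knockdown peak of set 1. Set 2 listed 1 scramble peak each for Foxk1 and Zfp36l2, and 3 for Irs2. Nsd1 and Wdr81 each had 2 lost peaks in set 2 under the score minimum.

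**Figure D5:**
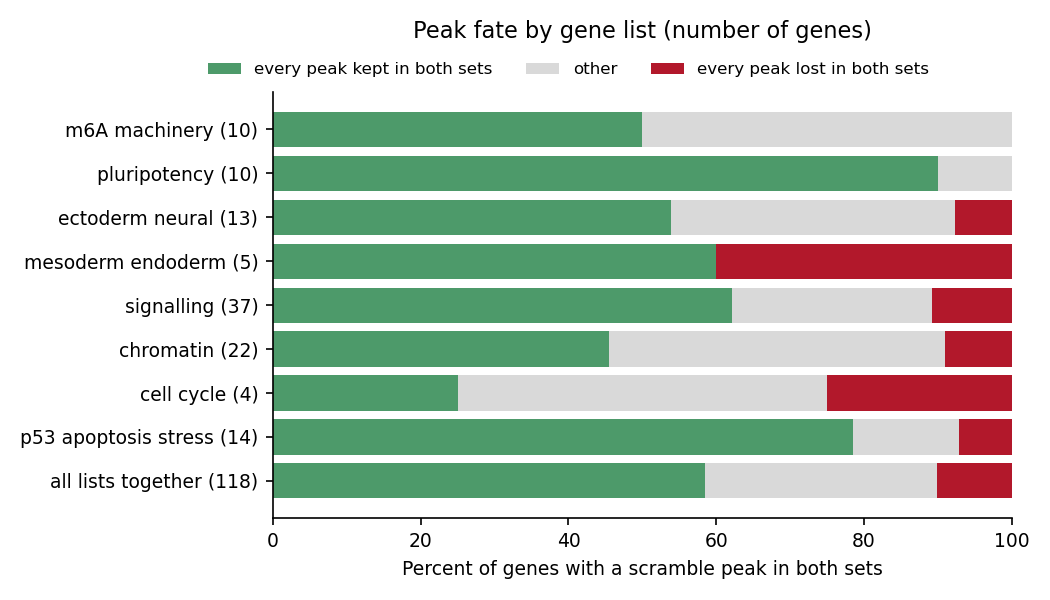
Share of genes, among those listed with scramble peaks in each set, that kept every peak (green), lost every peak (red) or had other outcomes (grey) in both sets, by gene list, with the number of genes in brackets. Lists with under 3 such genes are not drawn. All lists together had 58.5% kept and 10.2% lost.

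Gene lists chosen with earlier results of these data known were read against the background of 13.8% lost and 47.6% kept. Over the 11 lists, 118 genes were listed with scramble peaks in each set, of which 12 (10.2%) lost every peak and 69 (58.5%) kept every peak in both. The score minimum made these 16 (13.6%) and 49 (41.5%), beside 17.8% and 30.1% of all genes. These shares carry no test. The plot of the lists shows that most rest on a few genes.

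Of the pluripotency genes, 9 of 10 kept every peak and none lost every peak in both sets, with and without the score minimum. Sox2, a core factor of the stem cell state, kept a coding peak with 941 and 917 knockdown tags. Sall4 kept one with 618 and 720, and Myc a stop codon peak with 194 and 151. Lifr and Il6st, the 2 chains of the LIF receptor, kept peaks near the stop codon or in the 3' UTR. Klf4, another factor of the stem cell state, kept a coding peak whose deposited enrichment was 4.58 in scramble and 11.81 in the knockdown in set 1, and 3.79 and 10.32 in set 2. Its log2 change was 1.37 and 0.73 with the authors' scaling, and it was above 0 without the constant and relative to the median too. Socs3, a feedback inhibitor of LIF signalling, had 1.17 and 0.31.

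Pluripotency genes with a gained peak in each set were Sall1, Zfp281, Tet1 and Tet2. Tet2, a dioxygenase that oxidises 5-methylcytosine, gained a coding peak with 102 and 97 tags beside the coding peak that it kept. Zfp281 gained a second coding peak with 116 and 90 tags. Neither scramble library listed a peak for Zfp281, and Sall1 had the lost intronic peak in set 1. Of these 4, Sall1 and Zfp281 alone had a gained peak in both sets under the score minimum.

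Of the m6A machinery, 5 of 10 genes kept every peak and none lost every peak in both sets. The 5 were Rbm15 and Rbm15b, which recruit the writer, Cbll1, which is associated with it, and the readers Ythdf1 and Ythdf3. Rbm15 had a single scramble peak of 3215 and 3272 nt that was split into the same pattern of 2 knockdown peaks in both sets, with 140 and 522 tags in set 1 and 138 and 543 in set 2. Ythdf1 kept a coding peak with 469 and 359 tags. Under the score minimum Rbm15, Rbm15b and Ythdf3 kept every peak, while Ythdf1 and Cbll1 had lost theirs in set 2 and the demethylase gene Alkbh5 lost its peak in both sets.

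Of developmental signalling genes, 23 of 37 kept and 4 lost every peak in both sets (17 and 4 with the score minimum). The Wnt co-receptors Lrp5 and Lrp6 were both among those that lost. Lrp5 lost a coding peak of 178 and 183 scramble tags (chr19:3630130-3630564 in set 1), and in set 2 another of 104. Lrp6 lost a stop codon peak of 112 and 132 tags (chr6:134450602-134451174) and, in set 1, a coding peak of 103. Maml2, a Notch coactivator, lost a coding peak of 61 and 54 tags. Smad6, an inhibitor of BMP signalling, lost 2 peaks in each set, and in the set 1 knockdown it had a gained 5' UTR peak of 18 tags where set 2 had lost one.

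Members of the signalling list that kept every peak included Smad7, Notch1, Gli3, Axin2 and Jag1. Smad7, an inhibitor of TGF-beta signalling, kept all 3 of its peaks in each set, on 140 to 304 knockdown tags, although 2 were lost in set 2 with the score minimum. By the authors' deposited tables Jag1, a Notch ligand, was higher by a log2 change of 2.07 in set 1 and had -2.60 in set 2. Its scramble enrichments were 8.43 and 81.33, while the knockdown had 35.39 and 22.08, so the sets disagreed mainly in scramble.

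Lineage genes gave small numbers. Of ectoderm and neural genes, 7 of 13 kept every peak in both sets (4 with the score minimum). Of mesoderm and endoderm genes, 3 of 5 kept and 2 lost every peak (2 and 2 with the minimum). Gsc, a homeobox gene of the organiser, lost a stop codon peak of 23 and 18 tags, and Sox7, an endoderm factor, a 3' UTR peak of 17 and 20. Foxa2 and Foxc1, forkhead factors of endoderm and mesoderm, had gained peaks in both sets, and in neither gene was this so with the score minimum. For Foxa2 the gained peak of each set overlapped a scramble peak of the other set.

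Of chromatin regulators, 10 of 22 kept every peak, Kdm6b among them with 477 and 321 knockdown tags in its coding peak, and 2 lost every peak (5 and 3 with the score minimum). Suz12, a core subunit of Polycomb complex PRC2, lost a stop codon peak of 67 and 73 tags (chr11:80032003-80032345). Bcor, a corepressor subunit, counted as lost in both, but at different places. Its coding peak of 146 tags was lost in set 2, whereas in set 1 a coding peak at the same place was gained with 133 tags.

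Of p53 and stress genes, 11 of 14 kept every peak (9 with the score minimum), among them the immediate early genes Jun, Junb, Egr1 and Ier2, which did so under either setting. Hspa1a and Hspa1b also count here but are near-identical copies and uncertain. Gadd45b lost a peak of 88 and 96 tags, while its relative Gadd45a had a gained stop codon peak of 125 and 92 tags and no scramble peak, and with the score minimum no gained peak in set 2. Mdm2, the ubiquitin ligase of p53, kept a coding peak with 184 and 165 tags. Of 4 cell cycle genes Rbl2, a retinoblastoma family member, lost a stop codon peak of 47 and 28 tags. Only 1 of 63 ribosomal protein genes and 2 of 31 housekeeping genes had any listed peak. Among the fibroblast markers, Twist1 lost a stop codon peak of 38 and 34 tags.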

How the data were processed

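The submitters' processing notes name build mm10, the aligners TopHat2 2.0.6 and Bowtie 0.12.7, the trimmer cutadapt 1.1, and Picard 1.74, SAMtools 0.1.18 and CASAVA 1.8.2. Not given in the sources used here were the version of the peak caller and the order of the steps. Per the file headers, peaks were called for each IP library and each deposited table joins 1 knockdown with 1 scramble list. Per the file headers, the tag counts of a peak, its FDR in percent, its score (minus 10 times log10 of p) and its fold enrichment, a ratio of IP to control, are the authors' own values. The deposited scaled fold is that ratio times a constant, and the deposited signed comparison is a fold score, which was converted to log2. Scramble enrichments of kept peaks were recovered from it, and scramble tags, scores and FDR are listed for lost peaks alone. Tags per peak in the text are from the peak's own library.

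Peaks were compared in Python 3.11.15 with pandas 2.3.3 and numpy 2.4.6, by overlap of at least 1 nt on the same strand. The overlap step was tested on simulated lists with known answers. Positions are those of the peak's centre on 1 transcript a gene in GENCODE M21, which held 5659 of 5725 listed gene IDs (98.8%). A stop codon window reached 200 nt to each side. Peaks and genes are not replicates, so no test was run across them. Intervals are Wilson intervals for counting error, and library values were compared by an exact two-sided permutation test between groups and a sign-flip test within tables. Library depth was unknown, since no table gives total reads, and listed tags ran from 4 to 1746 a peak.

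Genes were named by rule: the 10 lost and 8 gained genes with the highest lower-of-2-sets tag count, the 6 kept genes lowest and the 6 highest in both sets relative to the table median, the 6 mixed genes with the most tags at the lost site, and the 6 genes with the most kept sites. Members of the 11 gene lists were named where their calls were the same in both sets, and a few others (Jag1, Foxc1, Tet1, Gadd45a, Bcor), as well as which members serve as examples, were chosen after their values were seen. The members and lists were chosen with earlier results of these data known. Alternatives were a coverage of 50% of the peak, either strand, an FDR of at most 5%, at least 20 tags, each set alone, other stop codon windows, other scalings, and the score minimum and the comparison within tables, which were added after seeing the data. The Mettl14 tables and the libraries without antibody were not used here.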

Additional observations from a re-analysis of the deposited data

How the results depend on the processing

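A replicate block over the tables, added after seeing the data, used the difference within each table, since the tables do not say which labelled number a library carries. The mean differences of all 7 library values (-1830 peaks) equal those between the groups by construction, so their direction could not change. The exact sign-flip test gave p = 0.5 for each. At an FDR of at most 5%, which also removes kept rows by their knockdown FDR, 2198 and 1251 peaks were lost and 423 and 719 gained per set, 399 sites were lost and 57 gained in both, and 250 genes lost every peak and 56 gained one. With at least 20 tags, 306 and 706 peaks and 68 sites were gained, and the median width was 528 nt for sites lost and 840 nt for sites kept. With the score minimum, added after seeing the data, 3544 peaks were lost and 184 gained in set 2, 1854 sites were kept and 24 gained in both, 1040 genes kept every peak and 24 gained one, and 19.8% of kept sites lay at stop codons. With each set alone, sites lost ran from 1192 to 1451, sites gained from 649 to 1284, genes losing every peak from 659 to 918 and genes gaining one from 474 to 897, all higher by construction, and median widths ran from 489 to 509 nt for lost and 768 to 792.5 nt for kept sites. The share of sites at stop codons was 20.9% of lost, 22.1% of kept and 15.7% of gained sites. It was 12.0%, 11.7% and 8.26% with a window of 100 nt, and 33.8%, 53.6% and 25.6% with any overlap. The mean of the 2 sets' median log2 changes was -0.35 in coding sequence and -0.39 at stop codons. Without the authors' constant the first was 0.00726, and over each set alone the values ran from -0.89 to 0.19 and from -0.98 to 0.20. Of 113 values under alternatives, 75 stayed within the limits set, 35 moved and 3 changed sign. Some of the 75 could not move. Among them were the 7 differences within tables, the counts by the authors' marks and the set 1 counts under the score minimum. All 10 named lost genes were lost in both sets under every alternative but the FDR limit, which left 5. The alternatives of coverage, at least 20 tags and the score minimum could not change these calls. A stricter overlap or fewer knockdown peaks cannot turn a lost peak into a kept one, and the genes were selected for many tags. Overlap on either strand and the FDR limit could change them. The 8 named gained genes became 7 on either strand, 6 at the FDR limit and 3 with the score minimum.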
